A study of Mus musculus with 16 samples.

Results

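The 10 genes described here belong to the mammalian circadian clock and to the PAR bZIP branch of transcription factors that the clock drives. They were listed by name, with earlier results of these data known: the PAR bZIP genes Dbp, Tef and Hlf, their antagonist Nfil3, the Period genes Per1, Per2 and Per3, the cryptochrome gene Cry1 and the REV-ERB genes Nr1d1 and Nr1d2. These are 10 of 21938 protein-coding genes of the annotation. Peaks were counted when they overlapped the 3 kb on either side of any transcription start site (TSS) of a gene, called promoter peaks, when they overlapped the gene body, and when they lay within 50 kb of a TSS.

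The data were chromatin immunoprecipitation sequencing (ChIP-seq) peaks from mouse clear cell sarcoma (mCCS), a soft-tissue tumour driven by the EWSR1::ATF1 (EA1) fusion. A V5-tagged human EA1 stood behind a stop cassette at the Rosa26 locus of mice of mixed 129/SvJ and C57Bl/6 background, and TATCre protein injected into the hindlimb at 4 weeks of age switched it on, so every tumour carried the fusion and none served as a control without it. The labels list 4 samples for each of V5, RNAPOL2 and H3K27ac and 4 of Input chromatin, while the methods name more tumours for V5 and RNAPOL2, and 1 peak list was deposited for each antibody. The V5 list held 10665 peaks, the RNAPOL2 list 20375 and the H3K27ac list 27552, with no read counts or values per sample, so no spread between tumours could be given and no test was made. The methods name an approximate read number common to the libraries, and the depth each one reached is not in the lists. The study describes more V5 sites than this list holds, so a gene without a listed V5 peak may have a site that was not analysed here, and every V5 count below holds for the list alone.

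The sources used here give no scale for the score of a peak. Comparisons of scores therefore stay inside 1 list, by rank from 1, the highest, with ties sharing the better rank. In bulk tumour, more cells with a mark and more signal per cell cannot be told apart. Median scores were 230 for V5, 246 for RNAPOL2 and 212 for H3K27ac. The tumours were taken whole and snap-frozen, and time of day was not given in the sources used here. Of 6 melanocytic and clear cell sarcoma markers, 2 (Mitf and Pmel) had a RNAPOL2 promoter peak and 3 (Mitf, Pmel and S100b) an H3K27ac one, while Sox10, Mlana and Tyr had neither. None of 4 skeletal muscle markers had either, but Cd68 of macrophages had both, and Ptprc of leukocytes and Pecam1 and Cdh5 of endothelium had H3K27ac, so markers of other cells were also among the marked promoters. Their part in the results at the 10 genes was not tested.

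In the clock of mammalian cells, CLOCK and BMAL1 bind E-boxes and switch on the Period and cryptochrome genes, whose proteins return to the nucleus and repress CLOCK and BMAL1. A second loop runs through the REV-ERB proteins, nuclear receptors that repress Arntl, the gene of BMAL1. DBP, TEF and HLF are leucine zipper activators that share a binding sequence, the D-box, with the repressor NFIL3, and both arms feed back on Period and REV-ERB genes. ATF1, the partner that gives EA1 its DNA-binding domain, is a relative of CREB and binds the cAMP response element (CRE). CREB is well known to act on Per1 through such an element when light or hormones reset the clock.

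The sequences of interest were therefore the CRE (TGACGTCA), its variants of the form TGANNTCA other than the CRE itself, the AP1 sequence TGAGTCA, the E-box CACGTG and the D-box as TTATGTAA or TTACGTAA. All were searched on both strands of mm10, and matches of different motifs were allowed to overlap. Of all V5 peaks, 8.51% held a CRE, 40.3% a variant, 26.0% an AP1 sequence, 13.9% an E-box and 2.82% the first form of the D-box. Among 32851 RefSeq promoter windows (GRCm38.p6, 250 bases before to 50 after the start) the shares were 1.79%, 12.5%, 5.20%, 7.15% and 0.938%, in the same order. The second D-box form was in 0.600% of V5 peaks and 0.119% of RefSeq windows. The paper also reports TGA repeats as a recurrent motif of EA1 sites. Repeats of more than 4 TGA or TCA units with gaps of at most 5 bp were in 10.2% of V5 peaks. A match is a string of letters and not a measured binding site of any factor.

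All 10 genes had a RNAPOL2 promoter peak and all 10 an H3K27ac promoter peak. Over all protein-coding genes the shares were 53.5% for RNAPOL2 and 58.6% for H3K27ac. The V5 list, which marks EA1, had a promoter peak at 5 of the 10 (Nfil3, Per1, Nr1d2, Cry1 and Tef), beside 16.6% of all protein-coding genes. In the upper 50% of the V5 list by score the count was 3 of 10 (Nfil3, Per1 and Nr1d2), beside 7.3% of all protein-coding genes. Of the protein-coding genes that, like these 10, carried both RNAPOL2 and H3K27ac at a promoter, 30.4% also had a V5 promoter peak. For the upper 50% of the V5 list the share among such genes was not computed. The median top promoter score of the members with a peak was 277 for V5, against 196 over all genes with one. The corresponding medians were 2164 against 912 for RNAPOL2 and 2714 against 863 for H3K27ac. For both active marks the members ran from Nfil3, at ranks 98 and 84, to Hlf, at ranks 10326 and 23839.

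**Figure D1:**
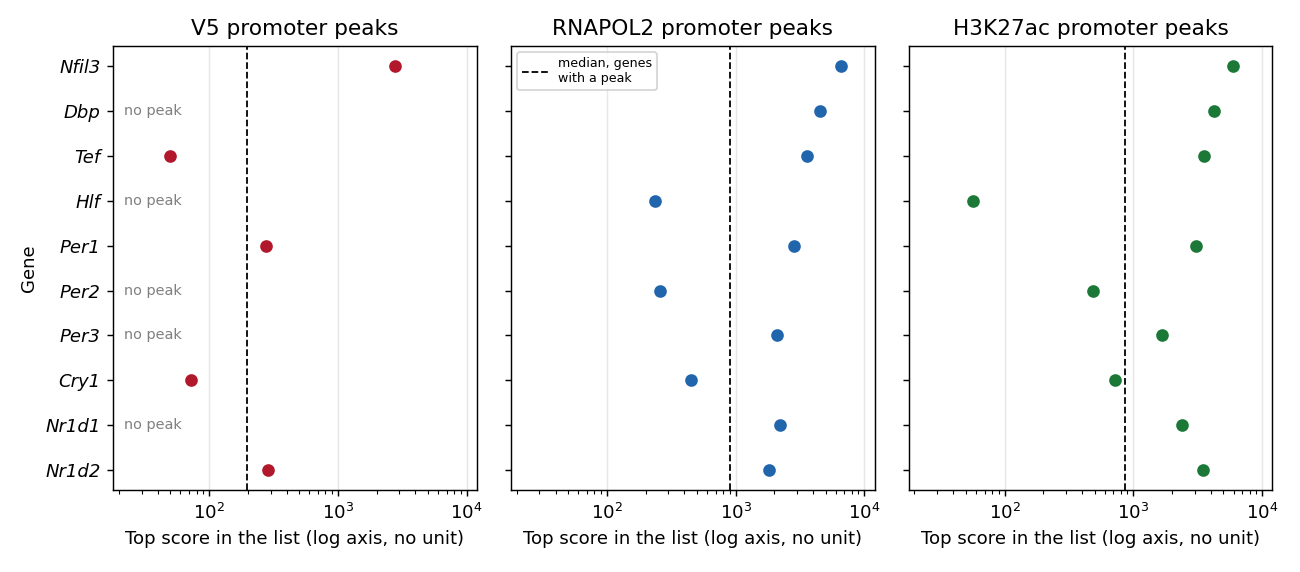
Top promoter peak score (log axis, no unit) of each of the 10 genes in the V5, RNAPOL2 and H3K27ac lists, 1 point per gene. The dashed line is the median over protein-coding genes with a promoter peak in that list, "no peak" marks the 5 genes without a V5 promoter peak, and Nfil3 is highest in each panel, at 2767, 6551 and 5958.

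Nfil3 (ENSMUSG00000056749.7, chr13:52967209-52981073, minus strand) encodes the repressor of the D-box. It had the highest score of the 10 genes in all 3 lists. Its V5 promoter peak (chr13:52978291-52983240) was 4950 bp wide, lay across the TSS and scored 2767, rank 265. A further V5 peak in the intron, chr13:52972821-52975200, scored 3115 (rank 218), and a smaller one between them, chr13:52976281-52977250, scored 506 (rank 2591). V5 peaks covered 44.2% of the gene body. The fourth within 50 kb, chr13:53007741-53009390, lay 27.5 kb upstream and scored 482 (rank 2677). All 4 overlapped an H3K27ac peak, and the 3 at the gene also lay under RNAPOL2.

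The marks over Nfil3 were among the widest in their lists. A single RNAPOL2 peak of 22110 bp (score 6551, rank 98) covered the gene and ran past its 3′ end, and an H3K27ac peak of 16550 bp (score 5958, rank 84) covered the gene whole. Among genes with a promoter peak, the median width of the widest was 1040 bp for RNAPOL2 and 1650 bp for H3K27ac. A RNAPOL2 promoter peak as wide was found at 26 of 11738 genes, Nfil3 included, and an H3K27ac one at 25 of 12846.

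No CRE was found in the 4 V5 peaks of Nfil3. The peak with a score of 3115 held 8 variants and 3 E-boxes, and the promoter peak held 3 variants, an AP1 sequence, an E-box and 3 D-boxes. The small intron peak held an AP1 sequence and a D-box, and the upstream peak held 3 variants. These counts are for wide peaks, which have more room for any short string. The stretches are shown because this is the gene with the highest V5 promoter score of the 10, and they carry variants and AP1 sequences but no CRE (plus strand of mm10, matches in capitals). The first is from the promoter peak, chr13:52982637-52982784, the next from the high intron peak, chr13:52974794-52974898, and the last from the small intron peak, chr13:52976810-52976856. In the promoter peak the printed matches start 1892 and 1993 bp from its middle. Those of the high intron peak start 804, 848 and 863 bp from its middle, and that of the small intron peak 65 bp.
Nfil3 upstream of the TSS, variant and AP1: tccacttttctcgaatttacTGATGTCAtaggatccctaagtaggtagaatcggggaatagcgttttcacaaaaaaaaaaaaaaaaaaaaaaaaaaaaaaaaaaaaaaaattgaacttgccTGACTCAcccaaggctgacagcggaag
Nfil3 intron, variant and E-boxes: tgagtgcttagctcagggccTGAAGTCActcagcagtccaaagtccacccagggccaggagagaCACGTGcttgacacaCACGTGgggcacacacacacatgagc
Nfil3 intron, AP1: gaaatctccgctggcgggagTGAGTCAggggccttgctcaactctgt

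Dbp (ENSMUSG00000059824.12, chr7:45705088-45710203, plus strand), the founding PAR bZIP activator and a direct output of CLOCK and BMAL1, had high scores for both active marks but no V5 promoter peak. Its RNAPOL2 peak (chr7:45703931-45715720) scored 4532, rank 275, and its H3K27ac peak (chr7:45703581-45708730) scored 4224, rank 332. The RNAPOL2 peak covered 100% of the gene body and was 11790 bp wide, but it ran on into the neighbouring genes Sphk2 and Rpl18, so it does not belong to Dbp alone. The nearest V5 peak was 7122 bp from a Dbp TSS. The 3 V5 peaks within 50 kb scored 230, 2889 and 1047. The peaks scoring 230 and 2889 lay at the promoters of Rpl18, a ribosomal protein gene, and Sphk2, a sphingosine kinase gene, and the third, nearer to Ntn5 than to Dbp, lay at no coding promoter. The peak that scored 2889 (rank 247) held a CRE, shown because it is the highest-scoring V5 peak with a CRE near the 10 genes, although it lies in a UTR of Rpl18 (chr7:45717982-45718009, plus strand).
CRE at Rpl18, near Dbp: cgcgctcatgTGACGTCAcccgtgcacc

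Tef (ENSMUSG00000022389.15, chr15:81802421-81826863, plus strand), a second PAR bZIP activator, has 10 annotated TSSs, and the marks divided them. At the outermost TSS, RNAPOL2 scored 108 (rank 13024) and H3K27ac 82 (rank 20684). At a group of internal TSSs, RNAPOL2 scored 3554 (rank 529) and H3K27ac 3556 (rank 590), and the V5 promoter peak lay there as well. That V5 peak (chr15:81810701-81811840) scored 50, rank 10180, near the bottom of its list. It held 3 E-boxes and none of the other motifs. The other V5 peak within 50 kb scored 363 (rank 3462) and lay at the promoter of Tob2, an antiproliferative gene. The E-box nearest the middle of the Tef peak is given because it starts 6 bp from that middle (chr15:81811256-81811301, plus strand).
Tef internal promoter, E-box: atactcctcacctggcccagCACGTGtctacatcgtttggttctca

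Hlf (ENSMUSG00000003949.16, chr11:90336536-90390895, minus strand), the third activator and itself a fusion partner in a leukaemia, stood at the other end. Its RNAPOL2 promoter peak scored 235 (rank 10326) and its H3K27ac peak 57 (rank 23839), the lowest of the 10 genes in both lists. No V5 peak lay nearer than 25945 bp to a TSS. The 4 V5 peaks within 50 kb of an Hlf TSS scored 389, 174, 50 and 1615. The first and second of these lay in Hlf introns, and the one that scored 1615 (rank 628) lay 48.0 kb upstream, outside any coding promoter. RefSeq promoter windows were matched for 9 of the 10 genes (11 windows), and that of Hlf was the 1 with a CRE, which starts 9 bases before the TSS. The stretch is shown because a CRE stood there without a listed V5 peak (GRCm38.p6, chr11:90390918-90390986, minus strand).
Hlf promoter, CRE: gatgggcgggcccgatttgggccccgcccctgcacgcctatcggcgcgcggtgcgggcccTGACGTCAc

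Per1, Per2 and Per3, the negative arm of the clock, differed in all 3 lists. Per1 (ENSMUSG00000020893.17, chr11:69095217-69109960, plus strand) had a V5 peak across its outermost TSS and another in an intron. Per2 (ENSMUSG00000055866.9, chr1:91415982-91459324, minus strand) had no V5 peak within 50 kb. Per3 (ENSMUSG00000028957.12, chr4:151003652-151044665, minus strand) had V5 peaks nearby but none at its promoter. Top RNAPOL2 promoter scores were 2860 (rank 916) at Per1, 258 (rank 10025) at Per2 and 2100 (rank 1645) at Per3. Top H3K27ac promoter scores were 3044 (rank 886), 490 (rank 8894) and 1668 (rank 2882). Per2 was the lowest of the Period genes in both.

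The V5 peak across the outermost Per1 TSS (chr11:69094551-69095330) scored 253, rank 4798, and held 2 E-boxes. The second, in an intron (chr11:69096681-69097730), scored 277, rank 4438, and held a CRE that starts 3 bp from the middle of the peak, and an E-box. Per1 was the member with a CRE in its own V5 promoter peak. Both V5 peaks lay within 1 RNAPOL2 peak and 1 H3K27ac peak of 8270 bp and 7420 bp. A second RNAPOL2 peak of 9140 bp (score 356) followed, and RNAPOL2 peaks covered 90.2% of the gene body. The remaining 3 V5 peaks within 50 kb of Per1 scored 163, 84 and 92 and lay at the promoters of Borcs6, Vamp2 and a group with Hes7. The E-box at the outermost TSS (chr11:69094863-69094908) and the intronic CRE (chr11:69097182-69097229) are printed. E-box and CRE are the sequences through which the clock and CREB are known to act on Per1.
Per1 upstream of the TSS, E-box: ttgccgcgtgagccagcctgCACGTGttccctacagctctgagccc
Per1 intron, CRE: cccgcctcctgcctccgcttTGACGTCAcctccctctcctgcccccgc

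At Per2 the nearest V5 peak was 118527 bp away, the farthest of the 10 genes. Its RNAPOL2 peak was 670 bp wide and covered 0.886% of the gene body. At Per3 the V5 peaks within 50 kb scored 154, 1292 and 67. The nearest to a TSS was 12826 bp away. The peak that scored 1292 (rank 853) lay at the promoter of Vamp3, a vesicle fusion gene upstream of Per3, and held a CRE. The other 2 lay in introns of Camta1. The Vamp3 CRE is shown as the second CRE near the 10 genes that lay in a promoter peak of a neighbour (chr4:151057954-151057981, plus strand).
CRE at Vamp3, near Per3: ggggccgtggTGACGTCAcgagcggtgg

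Cry1 (ENSMUSG00000020038.10, chr10:85131700-85185064, minus strand), the cryptochrome that with the Period proteins represses CLOCK and BMAL1, had modest peaks throughout. Its V5 promoter peak (chr10:85184771-85185280) was 510 bp wide and scored 73, rank 9626. RNAPOL2 scored 450 (rank 8190) and H3K27ac 720 (rank 6922), below the medians of genes with such peaks. No other V5 peak lay within 50 kb. The V5 peak held an E-box 60 bases upstream of the TSS, counted on the RefSeq window, and no CRE, variant, AP1 sequence or D-box. It is printed as the sole motif match in the sole V5 peak of Cry1 (chr10:85185089-85185134, plus strand).
Cry1 promoter, E-box: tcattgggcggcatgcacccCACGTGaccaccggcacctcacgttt

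The REV-ERB genes shared high active marks and differed for V5. Nr1d1 (ENSMUSG00000020889.11, chr11:98767932-98775333, minus strand) scored 2228 (rank 1475) for RNAPOL2 and 2384 (rank 1539) for H3K27ac and had no V5 peak within 19598 bp of a TSS. Its V5 peaks within 50 kb scored 50 and 125 and lay at the promoters of Msl1, a chromatin regulator, and Casc3, an exon junction gene. Nr1d2 (ENSMUSG00000021775.11, chr14:18204054-18239127, minus strand) scored 1831 (rank 2128) for RNAPOL2 and 3496 (rank 614) for H3K27ac. Its V5 promoter peak (chr14:18238221-18239080) scored 289, rank 4261, and held 3 E-boxes and a D-box. The other V5 peak scored 103 and lay at the promoters of Nkiras1 and Rpl15. The stretch of the Nr1d2 peak with 2 of its E-boxes on either side of a D-box is given because it holds both clock sequences (chr14:18238550-18238698, plus strand).
Nr1d2 first intron, E-boxes and D-box: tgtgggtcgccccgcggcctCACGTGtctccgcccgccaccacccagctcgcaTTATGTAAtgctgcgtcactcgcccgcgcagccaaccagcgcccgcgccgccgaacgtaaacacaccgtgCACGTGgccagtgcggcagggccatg

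RNAPOL2 peaks over gene bodies fell into separate ranges. They covered 100% of the bodies of Nfil3, Dbp and Nr1d1 and 90.2% of Per1. In the other 6 they covered 13.1% at Tef, 2.99% at Nr1d2, 1.35% at Per3, 0.886% at Per2, 0.738% at Cry1 and 0.690% at Hlf, beside a median of 3.43% over the 11738 genes with a RNAPOL2 promoter peak. Full coverage was found at 236 of those genes, or 2.01%. The 4 covered genes are short, 5116 to 14744 bp, while the others are 24443 to 54360 bp long. The 4 also had wider RNAPOL2 peaks: the widest promoter peak was 22110 bp at Nfil3, 11790 bp at Dbp, 11190 bp at Nr1d1 and 9140 bp at Per1, against 580 to 1990 bp at the other 6. The RNAPOL2 peak of Nr1d1 also overlaps the end of Thra, which lies on the opposite strand, and the peaks carry no strand.

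**Figure D2:**
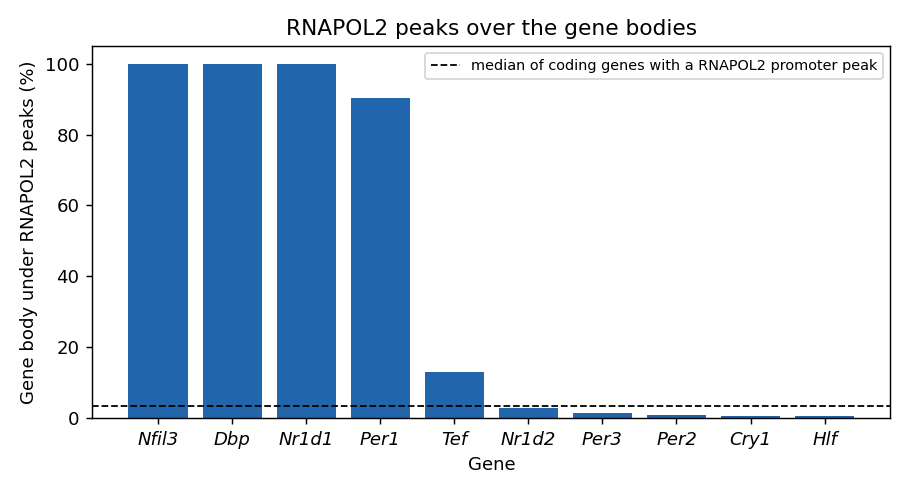
Share of the gene body under RNAPOL2 peaks (%), 1 bar per gene in descending order. Nfil3, Dbp and Nr1d1 stand at 100%, Per1 at 90.2% and the other 6 at 13.1% or less, and the dashed line is the median of 3.43% over genes with a RNAPOL2 promoter peak.

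Within 50 kb of a TSS, 9 of the 10 genes had a V5 peak, beside 41.3% of all protein-coding genes and 59.1% of those with both active marks at a promoter. The members had 26 such peaks, from 0 at Per2 to 5 at Per1, with a median of 2.5 and a mean of 2.6. The median over protein-coding genes with both marks was 1 and the mean 1.16. A count of 5 or more was reached by 449 of the 21938 genes (2.05%) and a count of 4 or more, as at Nfil3 and Hlf, by 877 (4.00%). The members have 1 to 10 TSSs, and a gene with more of them searches a longer stretch.

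**Figure D3:**
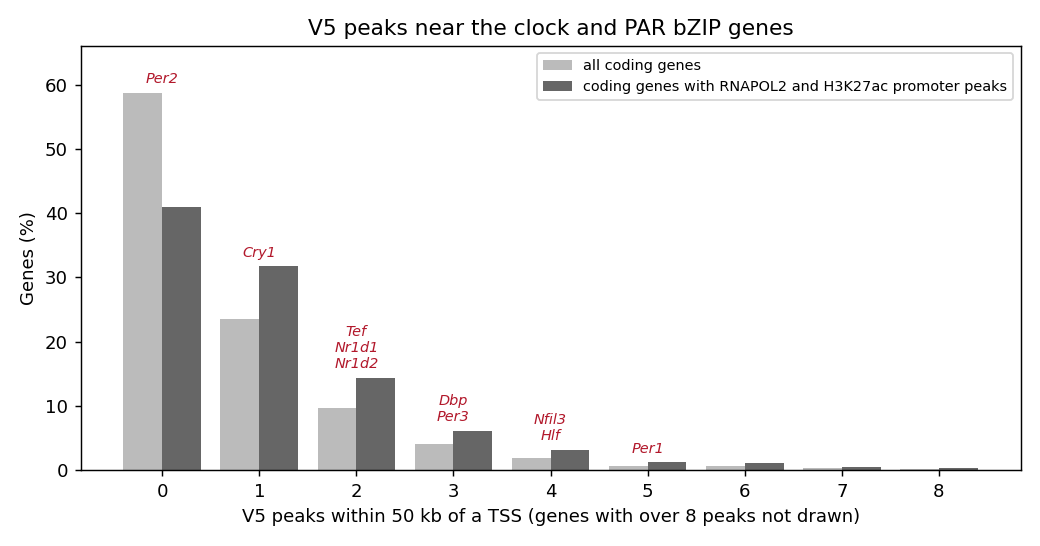
Percentage of all protein-coding genes (light bars) and of those with RNAPOL2 and H3K27ac promoter peaks (dark bars) with each number of V5 peaks within 50 kb of a TSS. The 10 genes are written above their counts, from Per2 at 0 to Per1 at 5, and genes with more than 8 peaks are not drawn.

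Many of these peaks lay at or near other genes. Of the 26, 6 lay at the member's own promoter, 10 at the promoter of another protein-coding gene and 10 at no coding promoter. Of all 10665 V5 peaks, 4330 lay at the promoter of an annotated gene, coding or not. How often peaks near other genes split in this way was not computed. For 13 of them the nearest protein-coding TSS was that of another gene. At Dbp, Per3 and Nr1d1, whose own promoters had no V5 peak, 5 of 8 lay at promoters of other genes, and at Hlf none of 4 did. H3K27ac peaks overlapped 24 of the 26 and RNAPOL2 peaks 20, beside 73.4% and 42.0% of all V5 peaks. The whole list holds promoter and distal peaks in another proportion, and the overlap of promoter peaks alone was not computed. Their median score was 241.5, near the 230 of the list, and 5 were in its upper 10%.

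Every one of the 6 V5 promoter peaks of the members held an E-box (Wilson 95% interval 61.0% to 100%), beside 17.6% of all V5 promoter peaks. The interval covers counting error alone and treats the peaks as separate, although 2 lay at Per1. Within the central 200 bp the counts were 4 of 6 and 5.24%. Their median width was 955 bp against 710 bp. A CRE was in 1 of the 6 (at Per1), beside 12.9% of V5 promoter peaks, a variant, at Nfil3, in 1, beside 26.9%, and an AP1 sequence, also at Nfil3, in 1, beside 16.4%. The first D-box form was in 2 of the 6, at Nfil3 and Nr1d2, beside 2.15%. E-boxes are a known feature of clock promoters, so this describes the promoters chosen as well as the peaks.

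The same strings were counted in the 1 kb on either side of the outermost TSS of every protein-coding gene, with or without a V5 peak, a count added after the peaks had been seen. E-boxes were in 6 of the 10 members, beside 27.5% of 21938 genes. Those were the 5 members with a V5 promoter peak and Nr1d1. At Nfil3, Per1, Cry1 and Nr1d2 the E-boxes are the ones already counted in the V5 peaks, while those in the Tef window lie outside its V5 peak. Either form of the D-box was in 6 members: the first in Nfil3, Tef, Per2, Per3 and Nr1d2 (5 of 10, beside 6.48%), and the second in Per1 and Per2 (2 of 10, beside 0.638%). The CRE was in 1 member, Hlf, beside 4.02%. Variants were in 5 of 10, beside 51.1%, and an AP1 sequence in 1 of 10, Nr1d1, beside 24.3%.

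Over all 26 V5 peaks near the members, 9 held an E-box (34.6%, Wilson 95% interval 19.4% to 53.8%), 7 a variant (26.9%, interval 13.7% to 46.1%), and 5 an AP1 sequence (19.2%, interval 8.51% to 37.9%). The CRE and the first D-box form were each in 3 (11.5%, interval 4.00% to 29.0%). Among all V5 peaks the shares were 13.9% for the E-box, 40.3% for variants and 26.0% for AP1 sequences. For the CRE and the first D-box form they were 8.51% and 2.82%. The intervals cover counting error alone and treat peaks of 1 gene as separate, although 2 of the 3 peaks with a D-box lay at Nfil3. The median width of the 26 was 860 bp against 710 bp for the list. TGA repeats were in 2 of the 26 (7.69%), beside 10.2% of all V5 peaks. These were the Hlf peak that scored 1615 and the Per3 peak that scored 154. The 3 with a CRE were the intron peak of Per1 and the peaks at Rpl18 and Vamp3. In each the CRE started within 48 bp of the middle of the peak.

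A wider view of Nfil3 was taken because the region towards its neighbour Auh was already known to be dense in V5 peaks, and the window of 200 kb was chosen after the data had been seen. It held 27 V5 peaks, a count reached or passed around 6 of 21938 protein-coding genes (0.0273%), and 14 within 100 kb, reached or passed around 26 (0.119%). Within 50 kb its 4 peaks were matched by 877 genes. Genes that lie side by side share such counts. The median V5 score in the region was 402, and 8 of the 27 were in the upper 5% of the list. H3K27ac overlapped 25 and RNAPOL2 19, beside the 73.4% and 42.0% of all V5 peaks. None of the 27 held a CRE, beside 8.51% of all V5 peaks. Variants were in 14 (51.9%, beside 40.3%), AP1 sequences in 8 (29.6%, beside 26.0%), E-boxes in 9 (33.3%, beside 13.9%) and the first D-box form in 4 (14.8%, beside 2.82%). TGA repeats were in 4 (14.8%, beside 10.2%). The median width of the 27 was 1090 bp against 710 bp. In the central 200 bp, variants were in 7.41%, beside 17.7% of all V5 peaks, AP1 sequences in 11.1%, beside 10.5%, E-boxes in 3.70%, beside 3.56%, and the first D-box form in 3.70%, 1 peak of 27, beside 0.506%.

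The peaks of this region stood in 3 groups. On the side downstream of Nfil3, 15 peaks lay 51.8 to 175 kb from the TSS with scores of 47 to 4927 and a median of 237. Of these, 10 lay in introns of Auh, a mitochondrial enzyme gene on the same strand, all 15 overlapped H3K27ac and 13 overlapped RNAPOL2. Around Nfil3 itself lay the 4 described above. On the far upstream side, 8 peaks lay 87.0 to 119 kb from the TSS towards Ror2, a receptor kinase gene, with scores of 67 to 7193, and 6 overlapped H3K27ac and 3 RNAPOL2. The highest of them, chr13:53091901-53095950, was 4050 bp wide and ranked 30 of 10665. Auh had 2 V5 promoter peaks (scores 3154 and 76) and Ror2 none. Which gene any of these distal peaks acts on cannot be read from the lists. Auh and Ror2 were named after their values had been seen.

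**Figure D4:**
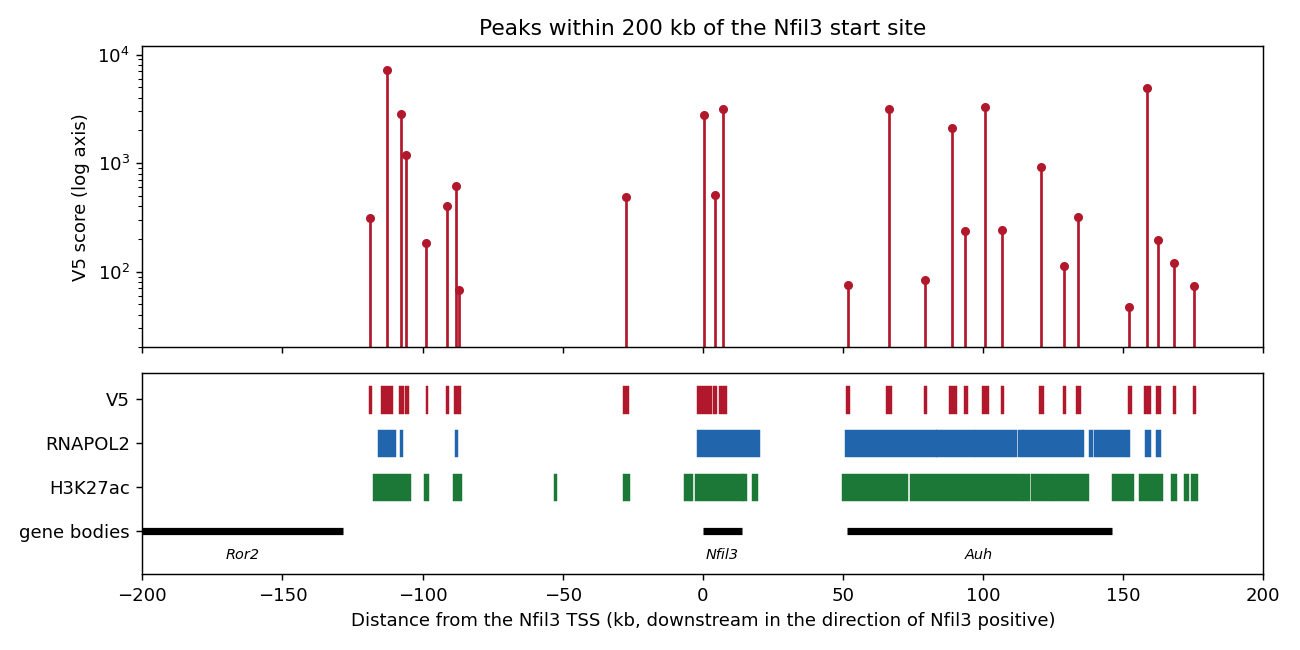
Peaks within 200 kb of the Nfil3 TSS by distance in kb, downstream of Nfil3 positive. The upper panel gives the score of each of 27 V5 peaks (log axis) and the lower panel the extent of the V5, RNAPOL2 and H3K27ac peaks and of Nfil3, Auh and Ror2, with 15 V5 peaks downstream towards Auh, 4 around Nfil3 and 8 upstream towards Ror2.

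The top peak on the Auh side (chr13:52821471-52823560, score 4927, rank 74) held a variant and an E-box. It is shown as the highest V5 peak downstream of Nfil3, with no CRE (chr13:52822317-52822453, plus strand).
V5 peak beyond Auh, variant and E-box: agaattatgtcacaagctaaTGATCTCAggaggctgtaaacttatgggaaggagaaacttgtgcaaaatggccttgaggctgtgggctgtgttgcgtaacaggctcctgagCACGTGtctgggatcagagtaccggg

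A list of 19 other clock genes was described in the same way. V5 promoter peaks were found at 10 of them, RNAPOL2 at 18 and H3K27ac at 19, beside 16.6%, 53.5% and 58.6% of all protein-coding genes. All 10 with a V5 promoter peak were among the 18 with both active marks. Of all protein-coding genes with both active marks, 30.4% had a V5 promoter peak. V5 scores at Arntl, the gene of BMAL1, were 43 (rank 10389), and at Cry2, the second cryptochrome, 153 (rank 6916). The repressors Bhlhe40 and Bhlhe41 had 196 and 50, the casein kinase genes Csnk1d and Csnk1e, whose products phosphorylate Period proteins, 207 and 208, and the ubiquitin ligase gene Fbxw11 had 207. Rorb, a nuclear receptor of the same element as the REV-ERBs, had 122, Cipc, an inhibitor of CLOCK, 62, and Usp2, a deubiquitinase gene, 651 (rank 2005). Clock, Arntl2, Npas2, Rora, Ciart, Fbxl21, Btrc, Timeless and Noct had none. Of these 29 clock genes, Nfil3 thus had the highest V5 promoter score, and Usp2 followed.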

How the data were processed

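Peak lists were used as deposited, 1 per antibody, with coordinates in mm10. Per the labels and methods, the authors aligned reads with BWA (0.7.10-r789), called peaks with MACS2 (2.2.6), using input as background and broad calling for H3K27ac, and discarded denylisted regions. The deposited score is a whole number on a scale that the sources used here do not state. 0 columns belonged to other samples.

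Genes and TSSs came from GENCODE M21. Overlap meant 1 shared base. Windows were 3 kb for promoters and 50 kb around any TSS. Motifs were read from the GRCm38 sequence on both strands. The window and motif code was tested on simulated data. Python 3.11.15, scipy 1.17.1, numpy 2.4.6 and matplotlib 3.10.9 were used. Named genes were the members, neighbours with a member's peak at their promoter, and other clock genes with a V5 promoter peak. Marker genes, the clock genes without a V5 promoter peak and the neighbours Auh, Ror2, Ntn5, Camta1 and Thra were named outside that rule, the neighbours after their values had been seen. 2 genes of the list of other clock genes are not reported here. The members and lists were chosen with earlier results of these data known.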

Additional observations from a re-analysis of the deposited data

How the results depend on the processing

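Of 63 recomputed values, 47 stayed within 1.5 times the reported count or within its Wilson interval and 16 did not. With the upper 50% of each list by score, 3 members, beside 7.3% of protein-coding genes, had a V5 promoter peak, and 14 V5 peaks lay within 50 kb. With windows of 25, 100 and 200 kb, the members' V5 peaks numbered 16, 45 and 70. For Nfil3 the 100 kb window held 14 V5 peaks, 13 over H3K27ac and 10 over RNAPOL2, and the 200 kb window, added after seeing the data, held 27, 25 and 19. In the central 200 bp of the 26 peaks, variants were in 3.85%, AP1 in 7.69% and E-boxes in 19.2%, beside 17.7%, 10.5% and 3.56% of all V5 peaks. In the members' promoter peaks, E-boxes were in 100% and the first D-box form in 33.3%. Narrower or wider windows, the central 200 bp and the upper 50% search less or more by construction, and the cause of the higher shares in the promoter peaks was not tested. With the outermost TSS alone, V5 promoter peaks were at 4 members, Tef having its peak at internal TSSs. No paired analysis was possible because the lists carry no values per sample. Scores without a stated scale, no depth per library and 1 list per antibody limit every comparison, and a gene without a listed peak is not shown to lack the factor.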
